A study of Mus musculus with 2 samples.

Results

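Cxcl9, Cxcl10, Iigp1, Igtp, Irgm1, Irgm2, Gbp2, Gbp3, Gbp5 and Gbp7 are 10 genes known to be switched on by the cytokine interferon-gamma. They were chosen by their symbols, with no measured value in the rule, though earlier results of these data were known. All 10 were found among the 32285 genes of the library described here. That library, from 2021, holds single cells of the thymus of adult C57BL/6 mice that had been sorted for surface CD64, the high-affinity Fc receptor of macrophages and monocytes. The labels name no treatment, no genetic change and no number of mice, and they call every cell a macrophage. A second library, from 2024, gives depth only, and its genes and barcodes were not analysed here. Gene values therefore rest on 1 library: there are no replicates, no p-values are given, and every interval is a 95% interval that covers counting error only.

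Interferon-gamma is made mainly by natural killer cells, innate lymphoid cells and T cells. It binds a receptor of the subunits Ifngr1 and Ifngr2, which signal through the kinases Jak1 and Jak2 to genes that often carry a palindromic promoter element called GAS. Type I interferons act through Stat2 and Irf9, among other proteins, on another element, the ISRE, and many genes, Cxcl10 among them, respond to both kinds of interferon. Cxcl9 and Cxcl10 are secreted chemokines that attract cells with the receptor Cxcr3. Iigp1, Igtp, Irgm1 and Irgm2 are immunity-related GTPases (IRGs), which act on membranes around intracellular microbes, Irgm1 and Irgm2 as regulators of the others. Gbp2, Gbp3, Gbp5 and Gbp7 are guanylate-binding proteins (GBPs), larger GTPases that gather on such membranes. Gbp5 is also known for promoting inflammasome assembly.

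The genes lie in groups on the chromosomes (GRCm38, GENCODE M21). Cxcl9 (ENSMUSG00000029417, chr5:92321347-92328079) and Cxcl10 (ENSMUSG00000034855, chr5:92346638-92348889) are neighbours on the minus strand. Gbp5 (ENSMUSG00000105504, chr3:142493978-142522344), Gbp7 (ENSMUSG00000040253, chr3:142530342-142550149), Gbp3 (ENSMUSG00000028268, chr3:142560026-142573209) and Gbp2 (ENSMUSG00000028270, chr3:142620602-142638008) follow each other on the plus strand. Irgm1 (ENSMUSG00000046879, chr11:48861968-48871683) lies apart from the other listed genes, on the minus strand. The models of Igtp (ENSMUSG00000078853, chr11:58199556-58207591) and Irgm2 (ENSMUSG00000069874, chr11:58199618-58222782) overlap on the plus strand, so that reads from a shared stretch cannot be given to either with certainty. The GBPs and IRGs are families of similar sequence, and the split of reads between close relatives is likewise uncertain.

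Promoters were compared because the report asks whether these genes are high in the same cells. RefSeq windows on GRCm38.p6, from 250 bases before to 50 after the start, were found for 9 of the 10 genes, 10 windows in all, since Gbp3 has 2 starts. The letters of 3 motifs were searched on both strands: the ISRE as GAAA, any 2 bases and GAAA, the GAS as TTC, any 3 bases and GAA, which is its own reverse complement, and the κB element bound by NF-κB proteins as GGGA, any base and TTCC or TTTCC. The ISRE letters were present for 8 of the 9 genes, in 8 of their 10 windows, and in 3.44% of all 32851 windows. The GAS letters were present in 4 of the 10 windows (Igtp, Irgm2, Gbp5 and Gbp7) and in 8.30% of all windows, and a κB match in 3 of the 10 (Cxcl9, Cxcl10 and Gbp5) and in 2.08% of all windows. The second window of Gbp3 held none of these letters. Below are the 250 bases before the start for 6 of them, chosen to show the chemokine pair, the IRG pair with similar promoters and the GBP pair that was highest in the same cluster. Capitals mark the matches.
Cxcl9 promoter, chr5:92328080-92328329, minus strand: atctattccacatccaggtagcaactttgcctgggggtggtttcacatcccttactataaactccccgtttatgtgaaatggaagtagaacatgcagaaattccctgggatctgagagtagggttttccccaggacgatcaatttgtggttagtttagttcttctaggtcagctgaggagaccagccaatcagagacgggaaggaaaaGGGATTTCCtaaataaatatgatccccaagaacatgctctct
Cxcl10 promoter, chr5:92348890-92349139, minus strand: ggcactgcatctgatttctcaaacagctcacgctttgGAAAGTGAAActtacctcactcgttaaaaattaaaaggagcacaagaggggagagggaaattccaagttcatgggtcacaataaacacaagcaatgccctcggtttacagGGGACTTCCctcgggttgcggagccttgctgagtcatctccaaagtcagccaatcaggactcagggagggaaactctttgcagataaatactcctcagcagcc
Igtp promoter, chr11:58199306-58199555, plus strand: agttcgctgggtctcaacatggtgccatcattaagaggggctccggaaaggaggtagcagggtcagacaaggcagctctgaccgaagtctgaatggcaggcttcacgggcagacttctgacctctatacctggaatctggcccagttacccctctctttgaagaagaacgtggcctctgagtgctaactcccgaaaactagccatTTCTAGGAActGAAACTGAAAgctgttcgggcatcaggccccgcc
Irgm2 promoter, chr11:58214727-58214976, plus strand: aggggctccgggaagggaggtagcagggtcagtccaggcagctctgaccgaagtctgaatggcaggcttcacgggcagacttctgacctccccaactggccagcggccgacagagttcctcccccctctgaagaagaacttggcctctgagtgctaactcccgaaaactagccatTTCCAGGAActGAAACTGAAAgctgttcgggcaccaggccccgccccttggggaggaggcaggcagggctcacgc
Gbp2 promoter, chr3:142620413-142620662, plus strand: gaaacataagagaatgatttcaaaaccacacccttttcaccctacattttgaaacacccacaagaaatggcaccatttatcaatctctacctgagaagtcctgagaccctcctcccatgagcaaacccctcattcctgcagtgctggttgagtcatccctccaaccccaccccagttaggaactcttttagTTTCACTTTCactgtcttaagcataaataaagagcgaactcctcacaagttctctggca
Gbp5 promoter, chr3:142496684-142496933, plus strand: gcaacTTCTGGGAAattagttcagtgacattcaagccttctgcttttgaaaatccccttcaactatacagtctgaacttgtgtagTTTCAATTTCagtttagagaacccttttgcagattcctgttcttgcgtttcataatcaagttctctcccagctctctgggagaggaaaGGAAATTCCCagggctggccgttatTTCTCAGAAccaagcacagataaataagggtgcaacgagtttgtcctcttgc
The Cxcl9 window held a κB match from 42 to 34 bases before the start and no match to the ISRE or GAS letters. In Cxcl10 the ISRE match lay from 213 to 204 and the κB match from 103 to 95 bases before the start. Igtp and Irgm2 carried a GAS match next to an ISRE match in the same order, and the 2 windows were identical at 184 of 270 aligned bases (68.1%). The ISRE match of Gbp2 began 59 bases before the start, and Gbp5 held an ISRE, a κB and 2 GAS matches spread over the window. The Irgm1 window and the first Gbp3 window each contained 2 overlapping ISRE matches, and in Gbp7 an ISRE match followed 2 GAS matches. These matches are letters in a window: no binding was measured.

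**Figure D1:**
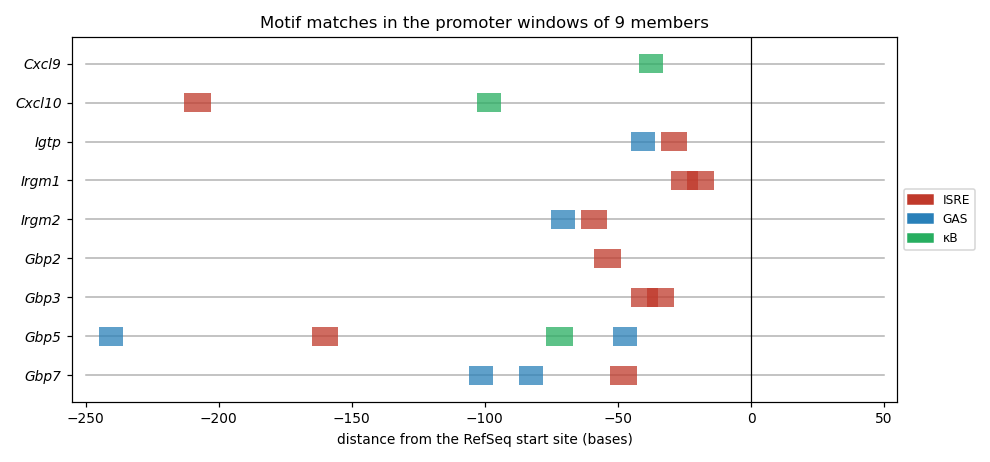
Position of each motif match (x axis, bases from the RefSeq start site) in the promoter windows of 9 genes (for Gbp3 the first start), one line per gene, with ISRE, GAS and κB matches as coloured bars. All matches lie upstream of the start, those of 8 genes include an ISRE match, and Cxcl9 has a κB match only.

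The library held 3214 barcodes, of which 3188 passed the filter of at least 500 unique molecular identifiers (UMIs, counted transcript molecules), 300 detected genes or more, and no more than 10% of UMIs from mitochondrial genes. After removal of 3 called doublets, 3185 cells with 8505574 UMIs were grouped into 15 clusters. A set of 72 interferon genes, the 10 included, was kept out of the clustering, so that they did not define the clusters. Only 378 cells were macrophage-like by their markers (C1qa, C1qb, C1qc, Mertk and others), in a cluster of 303 led by Ccl12 and Pf4 and a cluster of 75 led by Gdf15, Vcam1 and Spic. The rest were monocyte-like (472 cells), dendritic cell-like (681), neutrophil-like (486), T lineage-like (382), natural killer or innate lymphoid cell-like (295, here called NK/ILC-like), B lineage-like (211) and mast cell or basophil-like (11), besides unnamed clusters of 116, 140 and 13 cells. Fcgr1, which encodes CD64 and is itself an interferon-gamma target, stood at 134 counts per 1000000 UMIs of the class (CPM) in macrophage-like and 73.2 CPM in monocyte-like cells. It was at 11 CPM or less in all other named classes, and its part in the levels below, as the gene of the sort, was not tested.

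The 10 genes together gave 1972 UMIs, or 232 CPM over all cells, so each call below rests on few molecules. Cxcl10 (576 UMIs), Irgm1 (310) and Cxcl9 (307) had the most, followed by Gbp7 (179), Gbp2 (177), Igtp (146), Gbp5 (100), Gbp3 (83) and Irgm2 (80), and Iigp1 had only 14. Their summed level was highest in macrophage-like cells at 707 CPM (658 to 758). Monocyte-like cells followed at 292 CPM (259 to 327), then neutrophil-like at 180 (156 to 206), dendritic cell-like at 171 (154 to 189), NK/ILC-like at 164 (123 to 215), T lineage-like at 120 (97.0 to 147) and B lineage-like cells at 117 (87.4 to 153). The intervals of macrophage-like and monocyte-like cells overlapped with no other, and those of neutrophil-like, dendritic cell-like and NK/ILC-like cells overlapped with each other. With classes taken from summed marker UMIs, the macrophage-like level was 425 CPM and the monocyte-like level 372 CPM. The 3 families differed in how they were spread: 55.2% of the chemokine UMIs came from macrophage-like cells, against 31.0% of the GBP and 22.5% of the IRG UMIs.

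Against all other kept cells, 5 of the 9 members with at least 15 UMIs were at least 2-fold higher in macrophage-like cells, with 10 CPM added to both sides. They were Cxcl9, Cxcl10, Gbp3, Gbp5 and Gbp7, and the same was true of 5.11% of all 11126 genes with that many UMIs. The log2 ratio was 2.97 for Cxcl9 (182 against 14.5 CPM), 2.47 for Cxcl10 (261 against 39.0 CPM) and between 1.05 and 1.30 for the 3 GBPs. With classes taken from summed marker UMIs instead of clusters, Cxcl9 was at 66.2 CPM and Cxcl10 at 150.3 CPM in macrophage-like cells, and 2 members passed. Gbp2 lay just under the limit at 0.97, followed by Irgm1 at 0.73, Irgm2 at 0.58 and Igtp at 0.36. The median over the 9 was 1.05, beside 0.06 over all genes. Scaled by the median of ratios instead of total UMIs, 3 of the 9 passed.

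Ifng, the ligand itself, was found mainly in NK/ILC-like cells. It reached 212 CPM (164 to 269; 67 UMIs in 55 of 295 cells) there, and it had at most 7 UMIs in any other class. The receptor subunit Ifngr1 was at 458 CPM in NK/ILC-like, 353 in monocyte-like, 256 in macrophage-like and 243 in T lineage-like cells, and at 39.5 CPM in neutrophil-like cells. The other subunit, Ifngr2, was at 134 CPM in macrophage-like and 132 CPM in monocyte-like cells, and a single UMI (3.16 CPM) was found in NK/ILC-like cells. Jak2 was highest in the Ccr7 and Fscn1 dendritic cell-like cluster at 382 CPM. Cxcr3, the receptor of both chemokines, was at 37.4 CPM in B lineage-like and 28.4 CPM in NK/ILC-like cells and at 5.17 CPM or less in the other classes. Socs1, an inhibitor of this signal, was highest in the T lineage-like cells led by Trac and Rag1, at 366 CPM.

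Cxcl9 was found mainly in the larger macrophage-like cluster. There it stood at 227 CPM (196 to 260), with 199 UMIs in 34 of 303 cells, while the smaller macrophage-like cluster had a single UMI (4.49 CPM, 0.114 to 25.0). The dendritic cell-like cluster with Cd209a and Xcr1 came next at 33.6 CPM (26.0 to 42.7; 20 of 567 cells), with monocyte-like cells at 29.7 CPM (20.01 to 42.3; 5 of 472 cells). These intervals overlapped. The Ccr7 and Fscn1 cluster had 15.2 CPM, from 5 UMIs, and no UMI was found in NK/ILC-like cells, B lineage-like cells, the dividing unnamed cluster or the neutrophil-like cluster with Retnlg and Il1f9. In NK/ILC-like cells 0 of 295 allows at most 9.48 CPM, and in B lineage-like cells 0 of 211 at most 6.60 CPM. At a finer resolution the monocyte-like UMIs all lay in the cluster with Ly6c2, Ccr2 and Vcan (37.1 CPM, 344 cells), and the cluster with Ace and Treml4 (121 cells) held 0. The dendritic cell-like cells with Xcr1 and Clec9a stood at 52.0 CPM (35.3 to 73.8), with 17 of 31 UMIs in 1 cell, and those with Cd209a and Mgl2 at 25.4 CPM (17.7 to 35.3).

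The Cxcl9 molecules were held by very few cells. Of the 200 UMIs in macrophage-like cells, 59 were in 1 cell and 45 in another, so that 2 cells held 52.0% of them. Without the highest cell, the larger macrophage-like cluster stood at 160 CPM and kept the highest level of all clusters. The monocyte-like level was 16.8 CPM without its highest cell. Cxcl10 was spread more widely: 11 cells held 50% of the UMIs in the larger macrophage-like cluster, and its highest cell held 23 of 267. In contrast, 19 cells were needed for that share of the 61 Irgm1 UMIs there, and no cell had more than 3.

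**Figure D2:**
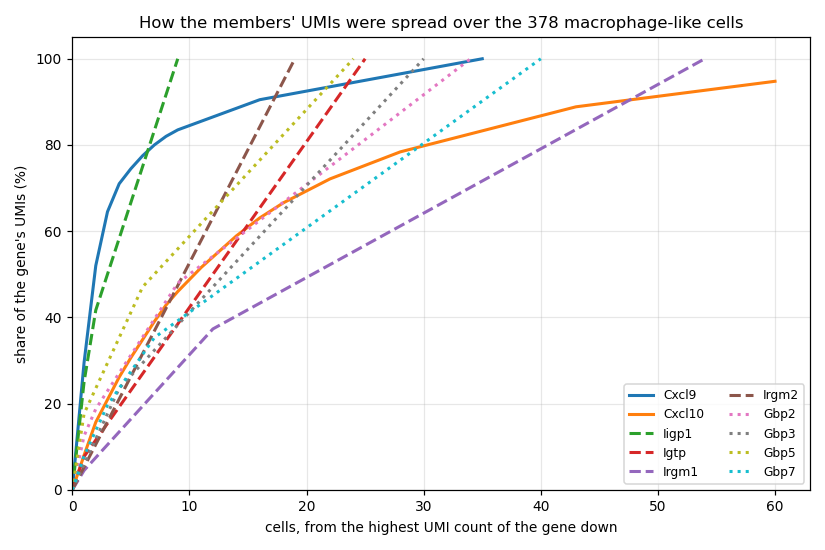
Cumulative share of the UMIs of each gene (y axis, %) over the 378 macrophage-like cells, ranked from the highest UMI count of that gene down (x axis, first 60 cells). The Cxcl9 curve reaches 52.0% at 2 cells, and the Irgm1 curve climbs most slowly.

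Cxcl10 had the widest reach of the chemokine pair. It was highest in the larger macrophage-like cluster at 304 CPM (269 to 343; 71 of 303 cells), followed by monocyte-like cells at 113 CPM (93.0 to 135; 39 of 472 cells). The neutrophil-like cluster with Retnlg was at 91.5 CPM (54.2 to 145), from 18 UMIs in 4 of 165 cells, and the smaller macrophage-like cluster at 89.8 CPM (54.8 to 139), from 20 UMIs in 4 cells. Single cells set several of these values: without the highest cell, the smaller macrophage-like cluster was at 22.7 instead of 89.8 CPM, the Trac and Rag1 T lineage-like cluster at 15.2 instead of 64.1 CPM, and the dividing unnamed cluster at 24.3 instead of 49.5 CPM. The order of the first and second cluster did not depend on their highest cell (279 and 92.2 CPM without it). The Cxcl10 intervals of the finer monocyte-like clusters overlapped, at 109 CPM (87.4 to 134) with Ly6c2 and 136 CPM (89.1 to 199.9) with Ace, but in the latter 21 of 26 UMIs were in 1 cell. NK/ILC-like cells (median 975 UMIs) had 1 Cxcl10 UMI in 295 cells and B lineage-like cells (median 1648 UMIs) 1 in 211.

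Free RNA in the suspension can put macrophage transcripts into any droplet, and the 3 C1q genes, markers of the macrophage-like cells, were taken as a measure of it. They summed to 6480 CPM in the larger macrophage-like cluster and to between 48.5 and 295 CPM in the clusters of at least 100 cells that were not macrophage-like. This C1q RNA was uneven in some clusters: 1 cell held 68 of 183 UMIs in the dividing unnamed cluster and 29 of 144 in the Dntt T lineage-like cluster. In NK/ILC-like cells 38 UMIs lay in 19 cells, with at most 7 in 1. The part of doublets or of the cells' own expression was not tested. Taken as free RNA, at the macrophage-like ratio of Cxcl9 to C1q, these C1q sums would bring 2.28 CPM of Cxcl9 to the Cd209a and Xcr1 dendritic cell-like cluster. Monocyte-like cells would receive 3.47 CPM. The measured Cxcl9 levels were 33.6 and 29.7 CPM. For Cxcl10 the amounts were 3.27 and 4.98 CPM, against 43.3 and 113 CPM. In NK/ILC-like, B lineage-like and Dntt T lineage-like cells and the granule-gene neutrophil-like cluster, neither chemokine exceeded its amount beyond the counting interval. Whether these few UMIs are background or low expression was not tested. The 20 dendritic cell-like cells with Cxcl9 held 37.0 CPM of C1q RNA, less than the other 547 (94.5 CPM), with overlapping intervals. The 5 monocyte-like cells with Cxcl9 held 886 CPM (472 to 1515) against 129 CPM in the others, and the part of macrophage RNA or of doublets in these 5 cells was not tested.

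The IRGs were spread over more classes. Irgm1 was at 69.4 CPM (53.1 to 89.2) in the larger macrophage-like cluster, 50.8 CPM (24.4 to 93.5) in the Retnlg neutrophil-like cluster, 46.8 CPM (37.8 to 57.4) in the Cd209a and Xcr1 dendritic cell-like cluster, 41.8 CPM in B lineage-like and 38.6 CPM in monocyte-like cells. The intervals of 5 clusters overlapped with that of the highest. Igtp was at 41.5 CPM (20.7 to 74.2) in the Trac and Rag1 T lineage-like cells and between 17.7 and 30.5 CPM in 7 further clusters, all with overlapping intervals, and it was not found in the 114 cells of the Ccr7 and Fscn1 cluster, which allows up to 9.10 CPM. Irgm2, the least abundant after Iigp1, had its highest level of 30.5 CPM in the Retnlg neutrophil-like cluster from 6 UMIs, with 8 overlapping clusters. Of the 14 Iigp1 UMIs, 12 were in the larger macrophage-like cluster, in 9 cells (13.7 CPM, 7.06 to 23.9), and 1 each in a T lineage-like and an unnamed cell.

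Each GBP had its own order of clusters. Gbp2 was highest in the Ccr7 and Fscn1 dendritic cell-like cluster, the marker profile of mature dendritic cells, at 118 CPM (84.1 to 162). Its 39 UMIs there lay in 29 of 114 cells, and no cell had more than 3. The larger macrophage-like cluster followed at 52.4 CPM (38.3 to 69.9), whose interval did not overlap, and the other dendritic cell-like cluster had 3.56 CPM (1.43 to 7.34). Gbp5 was highest in the same cluster at 63.7 CPM (39.4 to 97.4), but here the interval overlapped with those of 4 clusters, the larger macrophage-like one at 33.0 CPM (22.1 to 47.4) among them. The other dendritic cell-like cluster had 1.53 CPM. A Gbp5 level of 50.8 CPM in the Retnlg neutrophil-like cluster rested on 1 cell with 7 of 10 UMIs and was 15.4 CPM without it.

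Gbp3 and Gbp7 were low in the Ccr7 cluster, at 6.07 and 3.03 CPM. Gbp3 was at 34.2 CPM (23.0 to 48.8) in the larger macrophage-like cluster and 25.7 CPM (16.8 to 37.7) in monocyte-like cells, and it had no UMI in the 486 neutrophil-like cells, which allows up to 2.63 CPM. Gbp7 was at 60.03 CPM (36.1 to 93.8) in NK/ILC-like cells, 54.6 CPM (40.3 to 72.5) in the larger macrophage-like cluster, and 54.0 and 50.8 CPM in the 2 neutrophil-like clusters, all overlapping. It was at 8.90 CPM in monocyte-like cells (4.07 to 16.9). Neutrophil-like cells thus held Gbp7 and Gbp2 RNA without Gbp3, with 61, 29 and 0 UMIs.

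**Figure D3:**
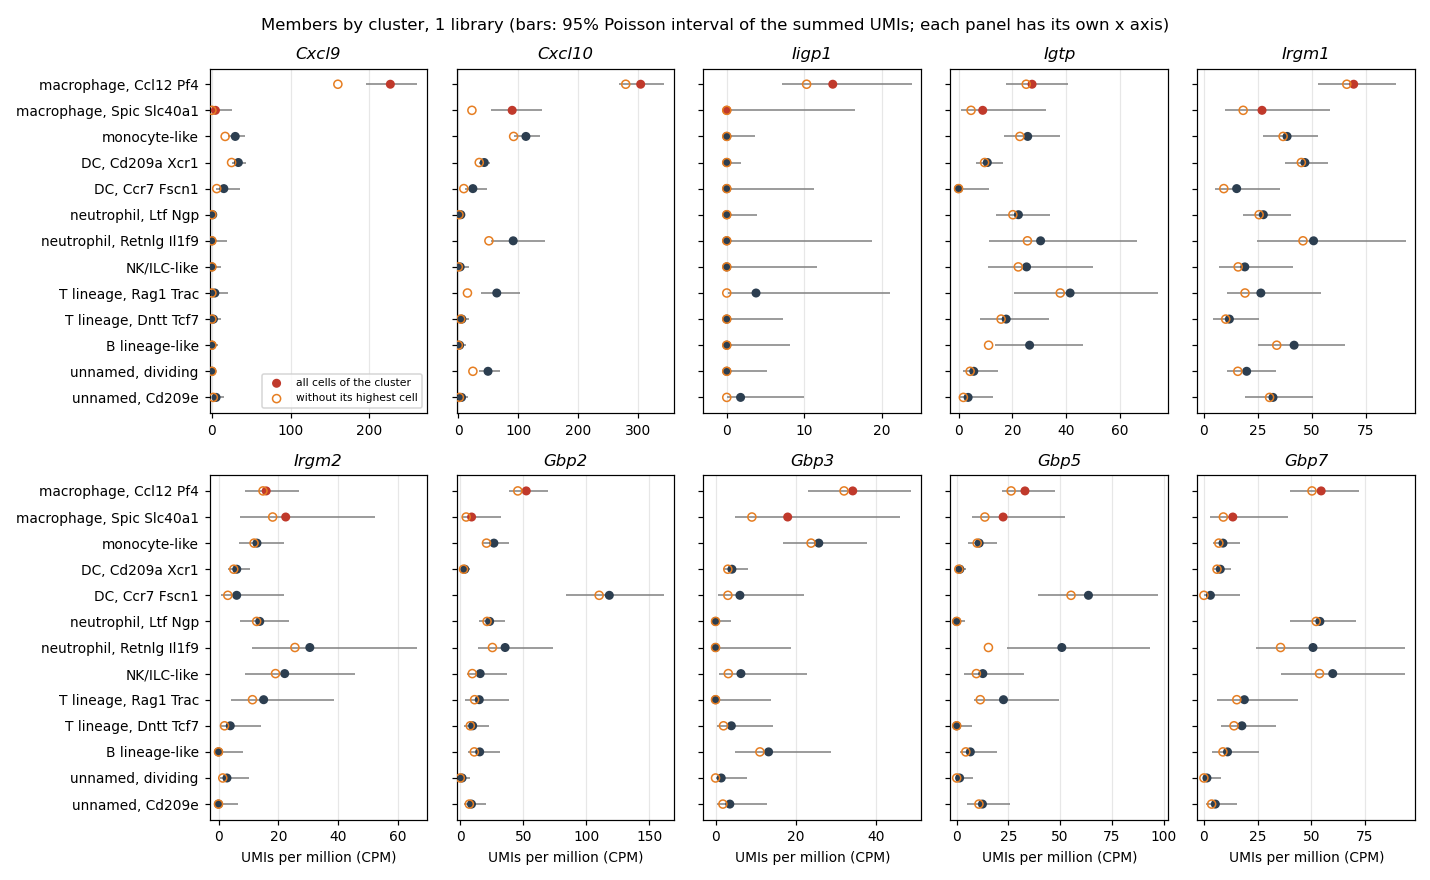
Level of each gene (x axis, CPM, a separate scale in each panel) in the 13 clusters of at least 20 cells; filled points are all cells of a cluster with the 95% Poisson interval, red for the macrophage-like clusters, and open circles leave out the highest cell. Cxcl9 and Cxcl10 peak in the Ccl12 and Pf4 macrophage-like cluster at 227 and 304 CPM, while Gbp2 and Gbp5 peak in the Ccr7 and Fscn1 dendritic cell-like cluster at 118 and 63.7 CPM.

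Across the same 13 clusters, the likeness of 2 members was described by Pearson's r of log2(CPM + 10). The clusters share 1 library and differ in depth, so r is a description only. The value for Cxcl9 and Iigp1 (0.75) rests on 1 cluster, since Iigp1 was at 0 in 10 of the 13 and had 12 of its 14 UMIs in the larger macrophage-like one. Of the other pairs, Gbp2 and Gbp5 were most alike (0.74), then Irgm2 and Gbp7 (0.70), Igtp and Gbp7 (0.69), Cxcl9 and Gbp3 (0.67), and Cxcl9 and Cxcl10 (0.66). Igtp and Gbp5 were at -0.04, and Igtp and Gbp2 at 0.00. The genes outside the list with the highest r to the summed members over all 15 clusters, among 6711 genes, were Stat2 (0.94), Trim30a (0.93), Parp14 (0.93), Aup1 (0.92) and Tor1aip1 (0.92). The 15 include clusters of 13 and 11 cells with 1 and 0 member UMIs. The part of these low points in r was not tested. Stat2 is the type I interferon factor named above, and Trim30a and Parp14 are known interferon-induced genes.

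Other genes known as interferon-gamma targets did not all share the macrophage-like peak. Of 27 such genes in the library, 20 had at least 15 UMIs, and 3 of these were at least 2-fold higher in macrophage-like cells than in all others, beside 5.11% of all genes: Ifi47, an IRG-like GTPase (127 CPM in macrophage-like cells), Cd274, which encodes the checkpoint ligand PD-L1 (106 CPM), and Fcgr1. Psmb8 and Psmb9, subunits of the immunoproteasome, were highest in dendritic cell-like cells at 921 and 464 CPM, against 605 and 316 CPM in macrophage-like cells, and Ciita, the master regulator of MHC class II, likewise at 122 against 62.7 CPM. No UMI of Nos2 or Ido1, textbook interferon-gamma targets of activated macrophages and dendritic cells, was found in any of the 8 classes. Of 26 genes of the type I response, 6 of the 25 with enough UMIs were at least 2-fold higher in macrophage-like cells (Ifit2, Ifit3, Irf7, Ifih1, Siglec1 and Ifi204), beside the same 5.11%. The summed type I genes were highest in the Retnlg neutrophil-like cluster, at 15170.3 CPM against 9459 CPM in the larger macrophage-like cluster. The summed members stood at 341 and 831 CPM in these clusters. Of the 42043 UMIs of the type I sum over all cells, 24460 came from Ifi27l2a, and its part in this order was not tested.

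Whether members were high in the same cells was asked within each class, after every cell had been thinned to 2000 UMIs so that cells were compared at 1 depth. Of 252 macrophage-like cells, 131 held no member, 75 held 1, 32 held 2 and 14 held at least 3. If members were independent, 113 cells would hold none and 7.92 at least 3. Counted over all 45 pairs of members, 116 pairs were found in the same cell against 61.7 under independence, a ratio of 1.88 (1.55 to 2.26). A single cell held 7 members, and without it there were 95 pairs and the ratio was 1.66 (1.34 to 2.03). In the larger macrophage-like cluster alone the ratio was 1.78 (1.47 to 2.14). Pairs that share a cell are not independent, so the intervals are too narrow.

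The excess of shared cells was not particular to macrophage-like cells. The ratio was 2.32 (1.71 to 3.07) in 237 monocyte-like cells, from 48 pairs, and 2.01 (1.42 to 2.76) without the cell with the most members. In 595 dendritic cell-like cells it was 3.32 (2.31 to 4.61), from 35 pairs against 10.6 under independence, and 2.95 without that cell, though the stricter cell filter gave 1.74. Neutrophil-like cells had 13 pairs and a ratio of 2.01 (1.07 to 3.44), and without 1 cell it was 1.72 (0.823 to 3.16). The 9 pairs of T lineage-like cells gave 4.25 (1.94 to 8.07), and without 1 cell 2.07 (0.427 to 6.04). The differences between classes were not tested. The monocyte-like class pools the finer clusters with Ly6c2 and with Ace. Their summed members were at 307 (270 to 348) and 215 CPM (154 to 292), and Irgm1 was at 44.6 and 5.25 CPM. The part of this pooling in the monocyte-like ratio and in the monocyte-like splits below was not tested. NK/ILC-like and B lineage-like cells had fewer than 100 cells of that depth.

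**Figure D4:**
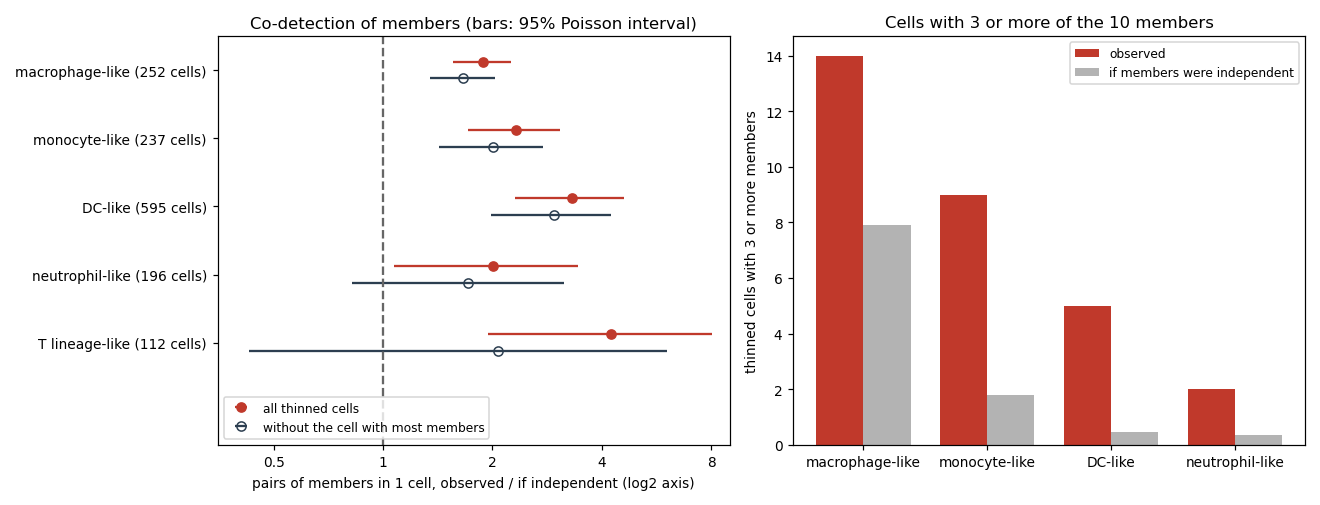
Left, pairs of members found in 1 cell divided by the number expected if members were independent (x axis, log2 scale) by class, for all thinned cells and without the cell with the most members, with 95% Poisson intervals. Right, cells with 3 or more members observed and expected, 14 against 7.92 in macrophage-like and 9 against 1.80 in monocyte-like cells.

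Single pairs were too rare for most statements. Among the 22 pairs of members expected in at least 1 macrophage-like cell, 20 were above a ratio of 1, and only Cxcl9 with Gbp2 had an interval above 1, with 6 cells against 1.48 expected (4.04, 1.48 to 8.80). Cxcl9 and Cxcl10, the chemokine pair, shared 8 cells against 4.71 expected (1.70, 0.733 to 3.34). Cxcl10 and Irgm1 shared 7 cells against 5.79 expected. In monocyte-like cells Cxcl10 and Irgm1 shared 6 cells against 2.62 expected (2.29, 0.840 to 4.98).

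Families were more often detectable together than single genes. Of the 53 macrophage-like cells with a UMI of any of the 4 GBPs, 23 held Cxcl9 or Cxcl10 (43.4%, exact binomial interval 29.8 to 57.7). Of the 199 cells with no GBP UMI, 45 did (22.6%, 17.0 to 29.1). The class pools 2 clusters. Its larger cluster held 48 of the 53 cells with a GBP UMI, 155 of the 199 without, and 65 of the 68 with a chemokine UMI. The shares within the larger cluster alone were among the alternatives below, and their intervals are not given. In monocyte-like cells the shares were 28.1% (13.7 to 46.7; 9 of 32 cells) and 9.76% (6.06 to 14.7; 20 of 205 cells). The share was higher with a GBP UMI under each alternative tried, from 28.2% to 50% against 15.6% to 27.7% in macrophage-like cells and from 23.1% to 36.5% against 4.88% to 10.9% in monocyte-like cells. IRGs followed the chemokines less clearly: 20.6% (14 of 68) of macrophage-like cells with Cxcl9 or Cxcl10 held an IRG UMI, against 15.8% (29 of 184) of those without, with overlapping intervals.

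In neutrophil-like cells IRGs and GBPs were found together with almost no chemokine UMIs. Of 24 cells with an IRG UMI, 8 held a GBP UMI (33.3%, 15.6 to 55.3), against 21 of 172 without (12.2%, 7.72 to 18.1), with overlapping intervals. Only 2 of these 196 thinned cells held Cxcl9 or Cxcl10. Of the 196, 182 belonged to the cluster with Ltf and Ngp, and 14 to the shallower Retnlg cluster, whose Cxcl10 level over all its cells was 91.5 CPM, so the shares describe the first of these. In dendritic cell-like cells, 20.8% of the 24 cells with a chemokine UMI held an IRG UMI against 8.41% of the other 571, and 8.33% held a GBP UMI against 5.25%, again with overlapping intervals.

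**Figure D5:**
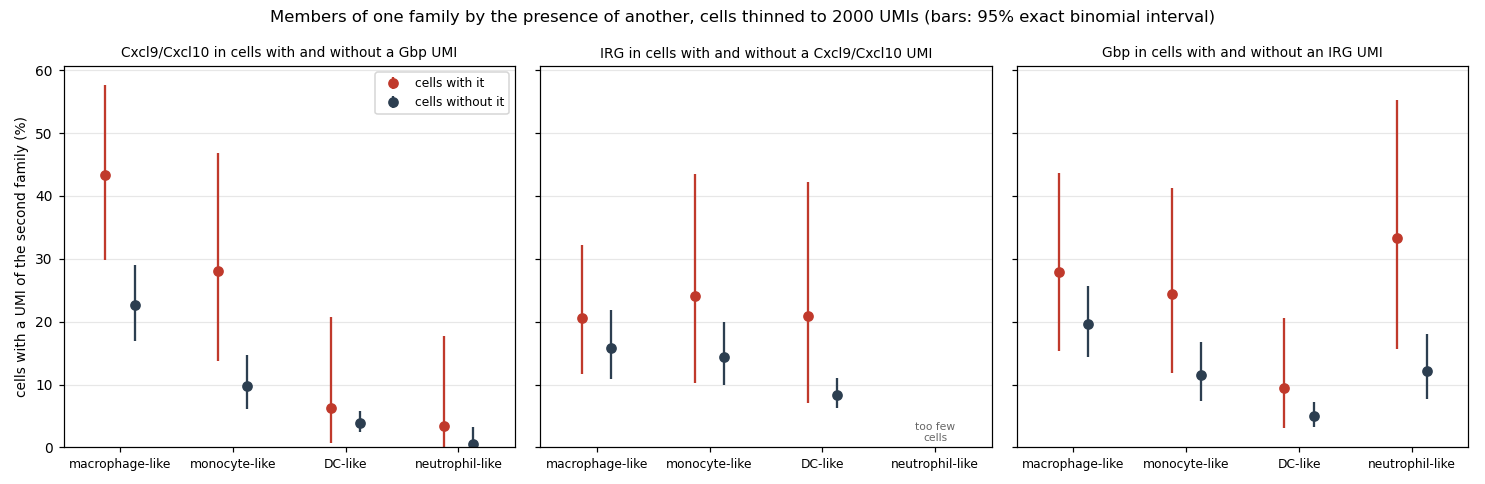
Share of thinned cells (y axis, %) with a UMI of one family among cells with (red) and without (dark) a UMI of another, by class, with exact 95% binomial intervals. Chemokines with GBPs stand apart in macrophage-like cells with both clusters pooled, 43.4% against 22.6%, and the other pairs of intervals overlap.

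Cells were then split by a single member, and each other gene was called higher at a log2 ratio of at least 1 (10 CPM added to both sides, genes with at least 15 UMIs). In the 22 macrophage-like cells with Cxcl9, 3 of the 6 other members with enough UMIs were higher than in the 230 without it, where 5.98% of 4111 genes were. Gbp2 was at 251 CPM (11 UMIs in 6 cells) against 28.3 CPM, Gbp7 at 159.5 against 34.8 CPM and Gbp5 at 91.2 against 26.1 CPM. Cxcl10 was at 479 against 291 CPM, and Irgm1 was at 45.6 against 63.0 CPM. All 22 cells lay in the larger macrophage-like cluster. Against its 181 other cells, 2 of 5 members were called, Gbp2 and Gbp7. The median log2 ratio of these 5 was 0.61, beside -0.06 over all genes there. With Cxcl10 as the split (54 and 198 cells), Cxcl9 alone of 6 was called, at 603 against 149 CPM, beside 3.21% of genes. With Irgm1 (27 and 225 cells), 5 of 6 were called, Cxcl9 and the 4 GBPs, beside 4.74% of genes, but another thinning draw called 1, and 2 were called without the cell with 7 members. With at least 50 UMIs required, no member was called in the Cxcl9 split, where a single one could be tested, so these counts depend on the settings.

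In monocyte-like cells, splitting by Cxcl10 (27 and 210 cells) called 3 of 4 members, Cxcl9, Igtp and Irgm1, beside 5.31% of genes, and splitting by Irgm1 (23 and 214 cells) called 3 of 4, Cxcl9, Cxcl10 and Igtp, beside 4.91%. Cxcl10 was at 587 CPM in the cells with Irgm1 and 91.1 CPM in the others. The called members had 5 to 27 UMIs in the smaller group. Another thinning draw called 0 members in the Cxcl10 split, and without the cell with the most members 1 was called in either split.

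The type I genes were set beside the members in the same splits. Of 22 type I genes with enough UMIs, 14 were called in macrophage-like cells with Cxcl10 (beside 3.21% of genes), among them Isg15, Ifit1, Ifit3, Rsad2 and Oasl1. In those with Cxcl9, 7 were called (beside 5.98%), and in those with Irgm1, 3 (beside 4.74%). In the 53 macrophage-like cells with a GBP UMI, 3 of 22 were called (beside 3.12% of genes), and the summed type I genes stood at 9762 CPM against 8822 CPM. In the 68 with a chemokine UMI, 13 of 22 were called (beside 3.41%), and the sum was at 12739 against 7652 CPM. The part of Ifi27l2a in these sums was not tested, whereas the calls count each gene alike. In the larger cluster alone, 12 of 21 were called with Cxcl10, 5 with Cxcl9, 2 with Irgm1, 2 with a GBP UMI and 10 with a chemokine UMI. The median log2 ratios of the type I genes there were 1.15, 0.55, 0.33, 0.31 and 0.92 in that order, beside -0.06 to 0.02 over all genes. Summed C1q genes were at 5998 CPM (5593 to 6424) in the cells with a chemokine UMI and 7413 CPM (7137 to 7697) in the others, and whether macrophage content had a part in the difference was not tested. Over all its cells, the smaller macrophage-like cluster had 10752 CPM of C1q and 2658 CPM of type I RNA. Its part in the C1q and type I sums was not tested.

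In dendritic cell-like cells most type I genes were called with a chemokine UMI and a single one, Oasl2, with a GBP UMI. In the 24 cells with Cxcl9 or Cxcl10, 19 of 22 type I genes were called, beside 8.36% of 5959 genes, and the summed type I genes were at 13476 CPM (12456 to 14556) against 4520 CPM (4398 to 4645). The summed GBPs were at 41.7 CPM in these cells and 39.4 CPM in the others. In the 39 cells with Irgm1, 18 of 22 were called, beside 5.67% of genes, and of 3 other members with enough UMIs only Cxcl10 was higher, at 103 against 26.1 CPM. In the 32 cells with a GBP UMI, in contrast, 1 of 22 was called, beside 10.1% of genes, and the sums were 4753 and 4888 CPM with overlapping intervals. Beside the same 10.1%, this split called 2 of 3 other members, Cxcl9 and Irgm1. It also called 5 of 12 other interferon-gamma targets, with 1 lower by the same fold. Most Gbp2 UMIs of this class lay in the Ccr7 and Fscn1 cluster, where 18 of 88 thinned cells held one, against 1 of 507 in the other cluster. Within that other cluster alone, 18 of 20 type I genes were called with a chemokine UMI (20 and 487 cells), beside 8.88% of genes. In monocyte-like cells the GBP split called 10 of 16 type I genes, beside 4.82% of genes, and the chemokine split 6 of 16, beside 5.11%. Neutrophil-like cells had 9 of 19 called with an IRG UMI, beside 7.84%, and 7 of 19 with a GBP UMI, beside 11.1%. Whether these splits differ between classes was not tested, nor was the part of Ifi27l2a in the type I sums of dendritic cell-like cells.

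All genes other than Cxcl9 were ranked in its split of macrophage-like cells. Towards the cells with Cxcl9, the 10 highest by ratio were, with the member Gbp2 among them, AA467197, Gbp2, Smarcad1, Gzma, Nkg7, Ccl8, Ccl5, Btk, Nudt19 and Gipc1. AA467197 was at 410 CPM (18 UMIs in 5 cells) against 34.8 CPM. A single cell held 10 of the 18, and without it the log2 ratio was 2.17 instead of 3.23. The chemokine genes Ccl8 and Ccl5 were at 593 against 124 CPM and at 2051 against 507 CPM. For Ccl8, 1 cell held 14 of 26 UMIs, and without it the log2 ratio was 1.15 instead of 2.17. Smarcad1, a chromatin remodeller, had 9 UMIs in 9 of the 22 cells and 16 UMIs in 15 of the 230. Gzma and Nkg7, cytotoxic granule genes of NK cells, were carried by 1 cell with 31 of 39 and 8 of 9 UMIs, and without it their log2 ratios were 0.06 and -0.47. Ccl5 is also an NK and T cell gene, and its log2 ratio without its highest cell was 1.41.

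In the other direction the 5 highest were Slpi, Stk17b, Fcgr3, Atp2b1 and Wsb1, which had no UMI in the 22 cells with Cxcl9. Against the limit of 3 counts, 68.4 CPM, Stk17b, a kinase gene, was at least 3.62-fold lower there, with UMIs in 81 of the 230 other cells (248 CPM). Fcgr3, which encodes a low-affinity Fc receptor, was at least 2.67-fold lower, with UMIs in 62 of the 230 (183 CPM). The limits were 2.61-fold for Atp2b1 and 1.91-fold for Wsb1. Slpi, a protease inhibitor gene, was at least 8.49-fold lower. However, its 267 UMIs lay in only 16 of the 230 other cells, 119 of them in 1 cell, so this limit rests on few cells. These genes were picked as the lowest of 4111 in 22 cells, and no second library was used to look at them again.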

How the data were processed

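Raw UMI counts per gene and barcode were deposited by the authors for 2 libraries, made with Cell Ranger (6.0.0 in 2021 and 8.0.0 in 2024, per the file headers) on mm10 (per the submitters' processing notes). The 2021 library held 8534578 UMIs in 3214 barcodes (median 2157.5, range 502 to 18653) and the 2024 library 24569270 UMIs in 2815 barcodes. The labels give 1 group, so no groups were compared and no test was run.

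The members and lists were chosen with earlier results of these data known. Scrublet in scanpy 1.11.5, at an expected rate of 6%, called 3 doublets (0.0941%, too few for the caller to have worked). Clusters came from log counts scaled to 10000 a cell, 2000 variable genes, 30 components, 15 neighbours and Leiden resolution 0.5 (igraph 0.11.9). They were named, as rebuilt names, from marker lists of 14 cell classes, where a name took 3 or more raised markers and was refused if another class led among the top 10 genes.

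CPM are the UMIs of a gene divided by all UMIs of the cells summed, times 1000000, with exact Poisson 95% intervals. Shares have exact binomial intervals. Pairs and splits used cells thinned to 2000 UMIs, which left out 126 of 378 macrophage-like, 235 of 472 monocyte-like, 86 of 681 dendritic cell-like and 290 of 486 neutrophil-like cells. A class needed 100 such cells and each side of a split 20. Limits for a count of 0 use 3 counts.

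Named genes were the 10 members, genes of the lists with at least 50 UMIs, the 5 genes most like the members among those with 100 UMIs or more, and in the Cxcl9 split 10 genes towards and 5 away from Cxcl9, with 50 CPM on the higher side. Ribosomal, mitochondrial, immunoglobulin and T cell receptor genes were not named. Nos2 and Ido1 were named after their values were seen. Splits by a family, values without the highest cell and the free RNA amounts were added after seeing the data. Cxcl11, Gbp11, Gm12250, Mx1 and Mx2 were not matched. The scripts were tested on simulated data, under Python 3.11.15 with the packages numpy 2.4.6, pandas 2.3.3 and scipy 1.17.1.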

Additional observations from a re-analysis of the deposited data

How the results depend on the processing

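Under 12 alternatives, 102 of 141 summary values moved by less than their counting interval or by less than 1.5 times, and 39 moved by more. The cause of these moves was not tested. A reversal was defined only for the ratios of shared cells, as a value below 1 where the interval lay above 1, and 0 were found. Levels and counts could not be labelled as reversed. The ratio of shared cells ran from 1.66 to 1.99 in macrophage-like, 2.01 to 2.96 in monocyte-like, 1.74 to 3.08 in dendritic cell-like and 1.70 to 3.73 in neutrophil-like cells. Counts of members called in a split by 1 gene were the least stable. Thinning to 1000 UMIs gave a neutrophil-like ratio of 3.73 and called 1 member with Cxcl9 and 2 with Cxcl10 in macrophage-like cells. Another thinning draw called 2 with Cxcl10 and 1 with Irgm1 in macrophage-like cells and 0 with Cxcl10 in monocyte-like cells. Adding 1 CPM called 2 with Cxcl10 in macrophage-like cells. Requiring 50 UMIs left few members to test and called 0 with Cxcl9 and 1 with Irgm1 in macrophage-like, 0 with Cxcl10 and 1 with Irgm1 in monocyte-like and 0 with Irgm1 in dendritic cell-like cells. Scaling by the median of ratios called 3 members higher in macrophage-like cells.

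Without the cell with the most members, chosen after seeing the data, 2 were called with Irgm1 in macrophage-like cells, and 1 with Cxcl10 and 1 with Irgm1 in monocyte-like cells. Clustering with the interferon genes gave summed levels of 765 CPM in macrophage-like and 259 CPM in monocyte-like cells, and called 0 with Cxcl10 in monocyte-like and 0 with Irgm1 in dendritic cell-like cells. A stricter cell filter (1000 UMIs, 500 genes, 5% mitochondrial) gave 147 CPM in dendritic cell-like and 129 CPM in neutrophil-like cells, a dendritic cell-like ratio of 1.74, 3 called with Cxcl10 in macrophage-like cells and 0 with Irgm1 in dendritic cell-like cells. Removing the top 6% of doublet scores gave 815 CPM in macrophage-like, 133 CPM in dendritic cell-like and 81.1 CPM in T lineage-like cells, with 3 called with Cxcl10 and 2 with Irgm1 in macrophage-like cells and 0 with Irgm1 in dendritic cell-like cells. Classes from summed marker UMIs gave 425 CPM in macrophage-like, 372 CPM in monocyte-like, 134 CPM in dendritic cell-like and 93.4 CPM in T lineage-like cells. They called 2 members higher in macrophage-like cells, 5 with Cxcl10 and 5 with Irgm1 in monocyte-like cells and 0 with Irgm1 in dendritic cell-like cells.

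Splits by Irgm1 at 1000 UMIs were not run in macrophage-like and monocyte-like cells because a side had fewer than 20 cells. For the same reason, splits by Cxcl9 or Irgm1 in macrophage-like cells were not run under marker classes. No paired analysis was possible because gene values come from 1 library, and for that reason no replicate could be left out. Of the 22 single pairs in macrophage-like cells, 1 had an interval above 1, and whether depth limits the others was not tested.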
